A study of Homo sapiens with 3 samples.

Results

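Forkhead (FOX) transcription factors were examined in human embryonic stem (ES) cells, as 3 lines kept undifferentiated. Members were taken by symbol, as FOX followed by a letter from A to S and digits, with or without more letters, and pseudogenes were left out. This gave 37 genes read by 43 probes, out of 16225 named genes on the array. FOXL2NB also has these letters but is a neighbour of FOXL2 and no forkhead gene, so it was left out (20.1, 15.8 and 38.4 units in H9, BG03 and ES01). A further 14 forkhead genes of the reference gene table were not analysed here, among them FOXC1, FOXK1, FOXK2 and FOXO6.

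The 3 lines, H9, BG03 and ES01, are established human ES cell lines and form 1 group, with 1 array per line. All grew on irradiated mouse fibroblasts as feeders, in medium with FGF2 and a serum replacement, and no differentiated or treated sample was analysed here. A line is 1 culture on 1 array, so a difference between lines holds line, culture and array together and has no test. Each array gave 2089034 to 2102778 beads, with a median of 42 beads per bead type. Intensities below are after quantile normalization, in linear units and in the order H9, BG03, ES01, and each SD is that of the 3 log2 values (n = 3). A gene was called above background in a line when it exceeded 11.2, 12.6 and 13.3 units in H9, BG03 and ES01, the level that 95% of olfactory receptor probes did not pass. Of 9 measured stem cell markers, 8 were above background in all 3 lines, SOX2 being the exception (3.87, 5.03 and 3.9). ZFP42 was the 1 stem cell marker at least 2-fold apart between lines (364, 780 and 247).

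Forkhead proteins bind DNA through a winged-helix domain, and several of them (the FOXA and FOXD proteins among them) can bind sites in closed chromatin. FOXH1 carries SMAD signals of the Nodal and activin pathway to early embryonic genes. FOXO factors are held out of the nucleus when insulin and PI3K signalling is active, FOXM1 drives genes of G2 and mitosis, and many other members act in single lineages such as stroma, sense organs, ciliated cells or T cells.

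Of the 37 forkhead genes, 15 (40.5%) passed background in every line, against 59.8% of all named genes. Another 4 were above it in 1 or 2 lines and 18 (48.6%) in none, against 32.2% of all named genes. The genes present in every line were FOXA2, FOXA3, FOXH1, FOXJ1, FOXJ2, FOXJ3, FOXL2, FOXM1, FOXN3, FOXO1, FOXO3, FOXO4, FOXP1, FOXP4 and FOXQ1. The members above background were 17 in H9, 16 in BG03 and 18 in ES01. These are counts, and no set test was made.

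**Figure D1:**
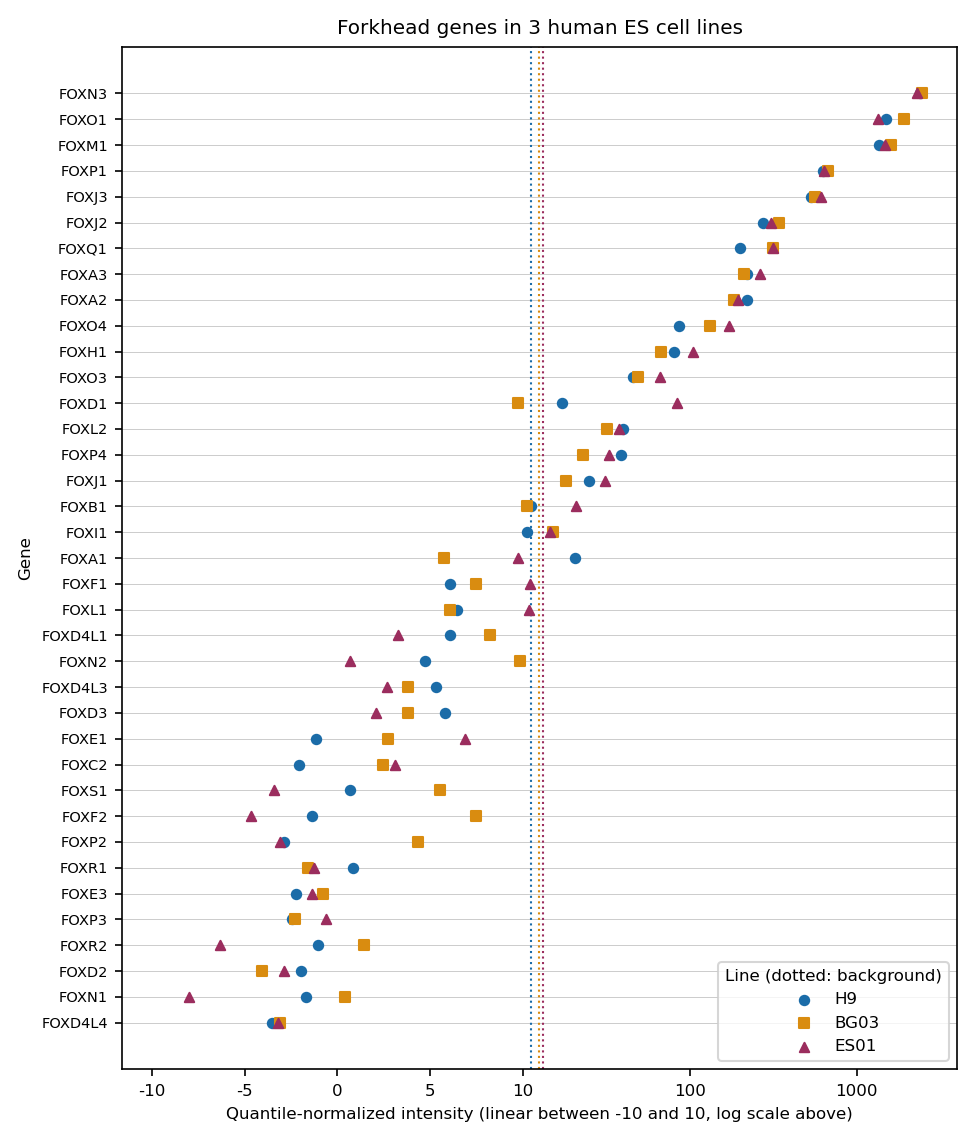
Quantile-normalized intensity (x axis, linear between -10 and 10 and on a log scale above) of the 37 forkhead genes (y axis) in H9, BG03 and ES01, 1 point per array, with each array's background level as a dotted line. FOXN3, FOXO1 and FOXM1 lie farthest right, and 18 genes lie left of the dotted line of each array.

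Among the factors of the early embryo, FOXA2 and FOXA3, which open chromatin at endoderm and liver genes, were above background in every line. FOXA2 measured 222, 185 and 195 (log2 SD 0.13) and FOXA3 measured 222, 212 and 263 (log2 SD 0.16). Their relative FOXA1 passed background in H9 alone (20.4, 5.73 and 9.77). FOXH1, the SMAD partner, measured 80.4, 67.1 and 104 (log2 SD 0.32), 5.34 to 7.86 times the background level of the array. FOXD3, known as a factor of the pluripotent epiblast and neural crest, did not pass background in any line (5.80, 3.83 and 2.07). It is read by 1 probe that was not checked for reading its transcript, as holds for every member here, so absence is not shown.

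The 3 measured FOXO genes were above background in every line. FOXO1, reported to sustain pluripotency genes in human ES cells, measured 1495, 1913 and 1341 (log2 SD 0.26). FOXO3 measured 45.6, 48.9 and 66.7 (log2 SD 0.29). FOXO4 measured 86.6, 132 and 173 (log2 SD 0.50), with H9 lowest and ES01 highest. Probes differ in how well they bind, so these intensities do not rank the FOXO transcripts. FOXM1, the mitotic factor, was bright and even at 1359, 1614 and 1472 (log2 SD 0.12).

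The FOXJ, FOXN, FOXP and FOXR genes were split, with 6 of 12 above background in all lines and 6 in none. The repressor FOXN3 measured 2400.5, 2485 and 2306 (log2 SD 0.05), and FOXP1 measured 634, 674 and 638 (log2 SD 0.05). FOXJ3 measured 535, 561 and 611 (log2 SD 0.10) and FOXJ2 measured 274, 342 and 307 (log2 SD 0.16). FOXP4 was dimmer at 38.6, 23.1 and 32.9 (log2 SD 0.38), and so was FOXJ1, the master factor of motile cilia, at 24.8, 18.3 and 31.1 (log2 SD 0.39). FOXN1, FOXN2, FOXP2, FOXP3, FOXR1 and FOXR2 were not above background in any line. FOXP2 acts in neural circuits, FOXP3 in regulatory T cells and FOXN1 in thymic epithelium.

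Of the 9 measured members known from mesoderm, stroma, kidney and gonad, 2 were above background in all lines. FOXQ1, an epithelial factor placed here for its chromosomal cluster, measured 199, 318 and 316 (log2 SD 0.39), lowest in H9. FOXL2, a factor of ovarian granulosa cells, measured 40.0, 32.1 and 37.5 (log2 SD 0.16), at 2.55 to 3.57 times background. FOXD1 passed background in H9 and ES01 only. The stromal, vascular and mesenchymal genes FOXC2, FOXD2, FOXF1, FOXF2, FOXL1 and FOXS1 passed it in no line. The nearest of these to background was FOXF1, a factor of lateral mesoderm, at 6.07, 7.50 and 11.1.

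Of 4 measured factors of ectoderm and sense organs, none was above background in all lines. FOXE1 of the thyroid and FOXE3 of the lens passed it in no line. FOXB1, a factor of the hypothalamus and midbrain, passed it in ES01 alone (20.8), with H9 just under (11.15 against 11.21) and BG03 at 10.7. FOXI1, a factor of the inner ear and kidney, lay so close to background (10.6, 15.1 and 14.5) that its calls in BG03 and ES01 were within 1 standard error of the bead mean, about 3.09 and 3.10 units. The copies FOXD4L1, FOXD4L3 and FOXD4L4, near-identical genes whose probes may read each other's transcripts, passed background in no line (-3.50 to 8.22).

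The 18 genes above background in no line ranged from -8.00 to 11.1 units over the arrays, and 4 of them were below 0 on all 3. At these intensities the standard error over beads was about 1.54 to 2.99 units, taken from bead types of like rank because the bead codes are not linked to genes here. A low level of such a gene was therefore not detectable, and fewer expressing cells cannot be told from less RNA per cell in such bulk samples.

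Of the 37 genes, 32 are read by 1 probe and 5 by several. For FOXA2, FOXM1, FOXO3 and FOXI1 the array pairs a probe for all isoforms with probes for 1 isoform each. The FOXA2 values came from the probe for all isoforms, while its 2 isoform probes measured 0.10, -0.50 and -2.90 and -6.57, -2.60 and -6.43. The FOXM1 isoform probe measured -3.50, -0.10 and -1.37, and the FOXO3 isoform probe 9.07, 9.87 and 5.93. So for FOXA2, FOXM1 and FOXO3 the all-isoform probe was above background in every line and no isoform probe was in any. For FOXN3 the second probe was also above background, at 921, 874 and 776. Both FOXN3 probes read lower in ES01 than in H9 (log2 -0.06 and -0.25). Between BG03 and H9 they went opposite ways (log2 0.05 and -0.07).

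Among the 15 genes above background in all lines the median SD was 0.16 on the log2 scale, against 0.18 for all such genes, and 8 of the 15 kept a range under 0.5, against 69.0% of all such genes. Set among the 500 genes nearest in level, the SD of FOXP1 was at percentile 6.60 and that of FOXN3 at 16.2, the evenest members. At the other end were FOXO1 at 86.0, FOXQ1 at 88.2 and FOXO4 at 93.4. No percentile is read for members above background in 1 or 2 lines, since their other values are set to background.

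**Figure D2:**
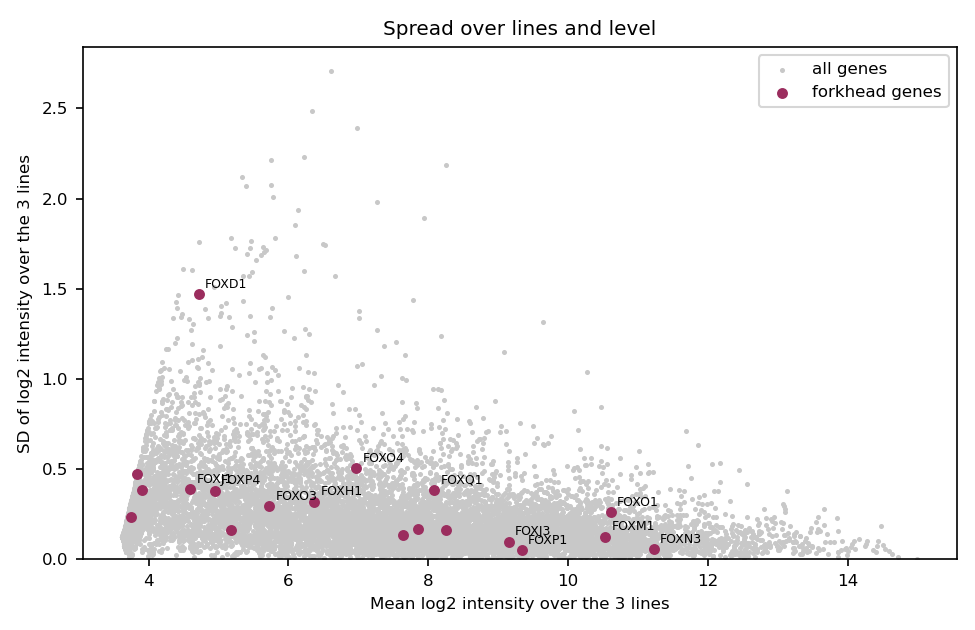
SD of log2 intensity over the 3 lines (y axis) against mean log2 intensity (x axis) for genes above background in at least 1 line, with the 19 forkhead genes in colour. FOXD1, with BG03 set to its background level, has an SD of 1.47 and lies at the upper edge for its level, while FOXP1 and FOXN3 (0.05 each) lie near the bottom.

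FOXD1, a factor of kidney stroma and retina, differed most between the lines. It measured 17.1 in H9, 9.77 in BG03 and 83.9 in ES01 (log2 SD 1.47 with BG03 set to its background level), so ES01 was high and BG03 was not above background. ES01 was 4.91-fold higher than H9 and at least 6.67-fold higher than BG03, with BG03 set to its background level. At the stricter background of the 99th percentile of the same probes it passed in ES01 alone. In the deposited values the 3 intensities were 17.4, 9.30 and 84.3, with bead standard errors of about 3.29, 2.81 and 5.44 units at such ranks. Bead error covers 1 array only and not the differences between cultures.

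Stroma markers were set beside FOXD1, as a feeder or stromal signal could be read by the same arrays. Their summed intensity was 1189 in H9, 1251 in BG03 and 1580 in ES01. In each line most of the sum came from THY1, and COL1A2 was the next largest part. The sum therefore does not stand for the markers as a set. Of 9 markers, 4 were above background in all lines. COL1A1 (18.6, 22.0 and 43.2), COL1A2 (310, 229 and 582) and TWIST1 (9.67, 24.5 and 45.4) were highest in ES01, as was FOXD1, while THY1 (752, 851 and 824) and S100A4 (50.8, 68.9 and 45.1) were highest in BG03. LUM was above background in BG03 alone (10.1, 48.9 and 10.1), DCN in H9 and ES01, and COL3A1 and POSTN were above it in no line. The cells that gave the THY1 signal, stroma or the ES cells themselves, cannot be told from these arrays. The part of stromal or feeder cells in the FOXD1 difference was not tested.

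FOXO4 stood at the 2-fold limit between H9 and ES01. Its ratio was 2.001 after quantile normalization (log2 1.0007), just under 2-fold in the deposited values (log2 0.9967), log2 0.67 when array medians were set equal and log2 0.99 when the BG03 array was left out of the normalization, which leaves FOXD1 as the 1 gene 2-fold apart between H9 and ES01. BG03 lay between the other two lines, 1.52-fold above H9. The deposited intensities were 86.5, 133 and 173, with bead standard errors of about 5.54, 6.49 and 8.06, which again cover 1 array each and not the spread between cultures.

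At 2-fold, the forkhead genes apart were 0 of 19 between H9 and BG03 (3.24% of all genes), 2 of 19 between H9 and ES01 (5.14% of all genes; FOXD1 and FOXO4) and 1 of 19 between BG03 and ES01 (3.75% of all genes; FOXD1). The 19 are the members above background in at least 1 line. With counts this small, nothing is read from the shares. FOXQ1 came next among the bright members, 1.59-fold higher in BG03 and in ES01 than in H9.

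**Figure D3:**
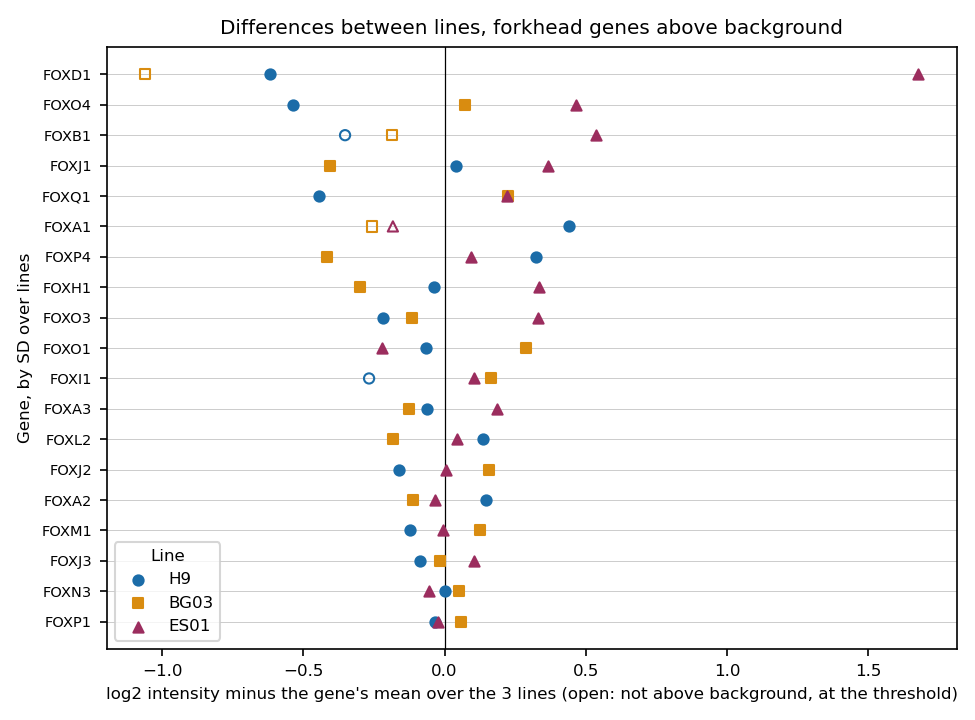
log2 intensity of each line minus the gene's mean over the 3 lines (x axis) for the 19 forkhead genes above background in at least 1 line (y axis, by SD over lines); open symbols are values not above background, drawn at the array's background level. ES01 stands far right for FOXD1, and the 3 lines lie close together for FOXP1, FOXN3 and FOXJ3.

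The share of members higher in 1 line than in another was read beside that of all genes. Among the 15 genes above background in all lines, 10 were higher and 5 lower in ES01 than in H9 after quantile normalization, while 49.8% of all such genes were higher. Against BG03, ES01 was higher for 9 and lower for 6 (46.8% of all such genes higher). BG03 was higher than H9 for 9 and lower for 6 (52.5% of all such genes higher). Setting array medians equal instead (same-median scaling) multiplies each array by a constant, and it moved the median log2 difference of all genes from 0.01 to -0.27 for ES01 against H9. The signs of small differences moved with it. With that scaling 5 members were higher and 10 lower in ES01 than in H9, with FOXA3, FOXJ2, FOXJ3, FOXM1 and FOXP1 turned, and 5 and 10 against BG03, with FOXA2, FOXA3, FOXJ3 and FOXL2 turned. The median of the 19 members less that of all genes was 0.18 under both scalings for ES01 against H9, and 0.13 and 0.20 for ES01 against BG03. These differences have no test, and both pairs share the ES01 array.

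Partners, regulators and known targets were set beside the members they belong to. For the list counts below, the share of all named genes above background in every line was 59.8%. Between 2 given lines, 3.24% to 5.14% of all genes were at least 2-fold apart. The share over any pair was not computed, so 2-fold list genes are given as description only. The FOXH1 and Nodal list was above background in every line for 12 of 12 measured genes. Among the SMAD proteins that FOXH1 binds, SMAD2 measured 117, 120 and 139, SMAD3 measured 315, 428 and 496 and SMAD4 measured 1014, 901 and 917. The receptor ACVR1B measured 235, 207 and 166. The ligand NODAL, itself a FOXH1 target, was the 1 gene of this list at least 2-fold apart (407, 503 and 909), highest in ES01. The targets LEFTY1 (10809, 14074 and 11243) and LEFTY2 (2727, 4287 and 3692) were highest in BG03, where FOXH1 was lowest. GSC of the same list (149, 108 and 151) was lowest in BG03, as FOXH1 was. LEFTY1, LEFTY2 and GSC were named after their values were seen, and no relation to FOXH1 was tested.

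FOXO regulators and targets passed background in every line for 20 of 23 measured genes. AKT1, a kinase that phosphorylates FOXO proteins, measured 67.1, 68.5 and 48.1, while AKT2 did not pass background. The related kinase SGK1 measured 335, 264 and 280.1, and PDPK1, which activates both, 204, 230.2 and 242. Known FOXO targets at least 2-fold apart differed in their order over the lines. The stress gene GADD45A (148, 183 and 382) was ordered as FOXO4, and the repressor BCL6 (148, 98.5 and 70.7) ran in the opposite order. KLF9 (27.2, 12.7 and 16.7) was highest in H9, but its BG03 value lay just above background (12.67 against 12.58). Catalase (CAT) passed background in ES01 alone (22.4). The CAT ratio of 2.003 has H9 set to its background level and stands at the 2-fold limit. These are 3 lines only, and no relation was tested.

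The FOXM1 and cell cycle list was above background for 18 of 18 genes, and none of them was 2-fold apart between lines. With 3.24% to 5.14% of all genes 2-fold apart per pair of lines, nothing is read from that count. MYBL2, which with the LIN proteins and FOXM1 switches on mitotic genes, measured 1174, 1369 and 1475. LIN9 measured 98.4, 97.5 and 85.1, LIN37 measured 97.1, 84.2 and 84.7, and LIN54 measured 36.1, 45.2 and 51.2. The log2 SD of these 4 genes was between 0.12 and 0.25, against 0.12 for FOXM1.

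Genes of the FOXA and endoderm list passed background in every line for 9 of 12 measured. The endoderm factors SOX17 (99.2, 92.4 and 105), GATA4 (68.7, 77.4 and 83.0) and GATA6 (292, 314 and 366) had log2 SDs of 0.09, 0.14 and 0.17. Those of FOXA2 and FOXA3 were 0.13 and 0.16, and the median of all genes above background in every line was 0.18. HHEX was at least 2-fold apart (72.3, 46.7 and 31.4), highest in H9. The liver genes AFP, TTR and APOA1 were also at least 2-fold apart, AFP lowest in H9 (148, 322 and 383) and TTR highest there (81.5, 12.8 and 21.0). APOA1 was lowest in ES01 (309, 287 and 147). ALB, PDX1 and SHH were above background in no line. Which cells gave the FOXA and endoderm signals, ES cells or differentiated cells among them, was not tested.

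FOXJ1 was above background in every line while most cilia genes were not, and at the stricter background it passed in 1 line. Of 11 measured genes of the cilia list, 2 were above background in all lines, the factors RFX1 (305, 257 and 555) and RFX3 (33.4, 36.3 and 33.4), and 9 were in none, RFX2 and the dynein gene DNAI1 among them. The FOXP3 and T cell list had 1 of 8 above background, TNFRSF18 (23.2, 19.1 and 18.6), with IL2RA, CTLA4 and IKZF2 not above it. Corepressors that bind FOXK and FOXP proteins were above it for 10 of 12. SIN3A measured 653, 618 and 565, SIN3B measured 403, 408 and 308, SAP30 measured 686, 569 and 558, and HDAC1 measured 2476, 2538 and 2129.

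**Figure D4:**
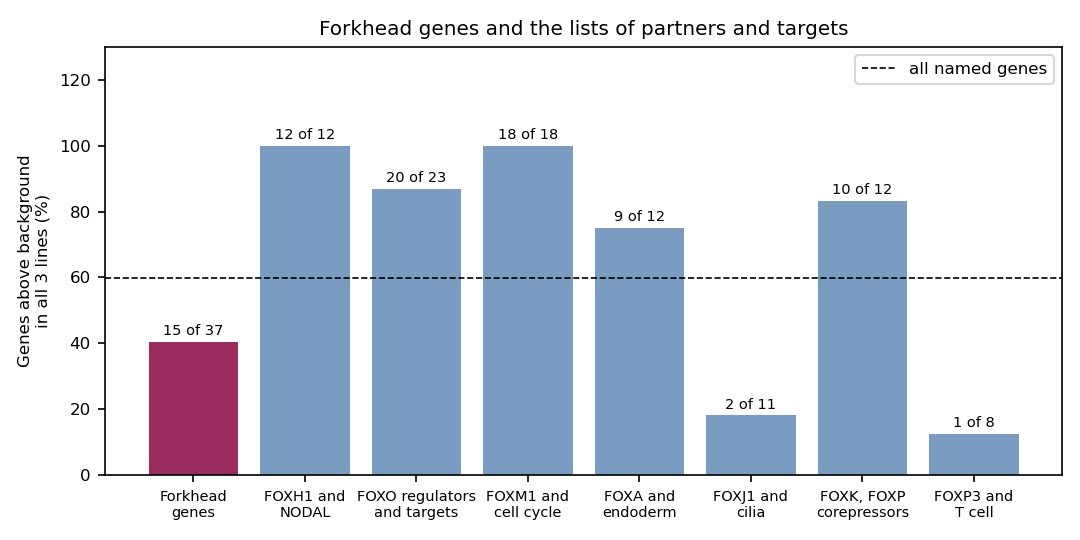
Share of measured genes above background in all 3 lines (y axis, percent) for the forkhead genes and 7 lists of partners, regulators and targets (x axis), with counts above the bars and the share of all named genes (59.8%) as a dashed line. The FOXH1 and FOXM1 lists reach 12 of 12 and 18 of 18, and the cilia and T cell lists 2 of 11 and 1 of 8.

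Neighbouring forkhead genes were compared by their order in the reference. FOXF1, FOXC2 and FOXL1 lie close together on chromosome 16, and none was above background in any line. FOXE3 and FOXD2 are neighbours on chromosome 1 and were not above it either. On chromosome 6, FOXQ1 was above background in all 3 lines, and FOXF2, with 1 coding gene between them, in none.

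Promoters were taken from RefSeq (build GRCh38.p14) as the 250 bases before each annotated start, and 27 of the 37 genes had an entry. Broadly expressed genes often start in CpG-rich sequence, so the ratio of observed to expected CpG was computed for each. A member with several starts was given the median over them. The 11 members above background in all lines had a median ratio of 0.89 (0.40 to 1.14), and 10 of them reached 0.6. The 4 members above it in 1 or 2 lines had a median of 0.57, and 2 reached 0.6. The 12 members above it in no line had a median of 0.60 (0.08 to 1.02), and 6 reached 0.6. Over all genes the medians of these 3 groups were 0.81, 0.64 and 0.41, and the shares reaching 0.6 were 80.1%, 53.8% and 36.3%. FOXF2, FOXP3, FOXR1, FOXD3, FOXE1 and FOXD2 reached 0.6 without being above background. FOXP3 did so with 10 CpG in a window of 39.6% GC, so its high ratio reflects a low expected count.

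The promoters of 4 members are shown as examples of this range, chosen after their values were seen, each as the 250 bases before the start from 5′ to 3′ on the strand of the gene with CpG in capitals. FOXO1, bright in every line, lies at chr13:40666642-40666891 on the minus strand and has 27 CpG. FOXD1, the member that differed most between lines, lies at chr5:73448778-73449027 on the minus strand and has 13. FOXO4, at the 2-fold limit, lies at chrX:71095601-71095850 on the plus strand and has 21. FOXR2, above background in no line, lies at chrX:55623150-55623399 on the plus strand and has 1.
FOXO1: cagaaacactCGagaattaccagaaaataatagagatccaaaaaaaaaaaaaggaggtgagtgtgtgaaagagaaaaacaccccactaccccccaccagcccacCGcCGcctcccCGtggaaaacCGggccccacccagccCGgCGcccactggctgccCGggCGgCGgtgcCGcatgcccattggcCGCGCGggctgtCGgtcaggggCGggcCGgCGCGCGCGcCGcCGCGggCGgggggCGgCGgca
FOXD1: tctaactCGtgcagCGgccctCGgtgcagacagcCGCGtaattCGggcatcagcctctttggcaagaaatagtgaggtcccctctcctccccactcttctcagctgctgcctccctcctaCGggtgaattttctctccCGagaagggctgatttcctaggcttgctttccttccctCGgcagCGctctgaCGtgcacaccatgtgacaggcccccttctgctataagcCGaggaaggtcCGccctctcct
FOXO4: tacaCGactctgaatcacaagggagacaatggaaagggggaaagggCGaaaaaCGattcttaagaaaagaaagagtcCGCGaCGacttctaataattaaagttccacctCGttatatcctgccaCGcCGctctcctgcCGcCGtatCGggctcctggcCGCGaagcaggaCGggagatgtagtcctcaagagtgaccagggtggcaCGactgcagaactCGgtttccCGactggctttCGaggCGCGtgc
FOXR2: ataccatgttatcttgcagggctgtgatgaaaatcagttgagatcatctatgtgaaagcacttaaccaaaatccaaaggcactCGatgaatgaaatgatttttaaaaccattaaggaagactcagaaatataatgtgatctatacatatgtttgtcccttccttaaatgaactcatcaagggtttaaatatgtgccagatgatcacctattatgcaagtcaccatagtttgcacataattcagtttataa

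In FOXO1 23 of the 27 CpG lie in the 125 bases next to the start, in FOXD1 6 of 13 and in FOXO4 14 of 21. The forkhead core motif TGTTTAC, searched on both strands, was in 1 of the 38 windows of members, against 2.98% of all 35116 windows. A match is a run of letters and not a bound site.

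**Figure D5:**
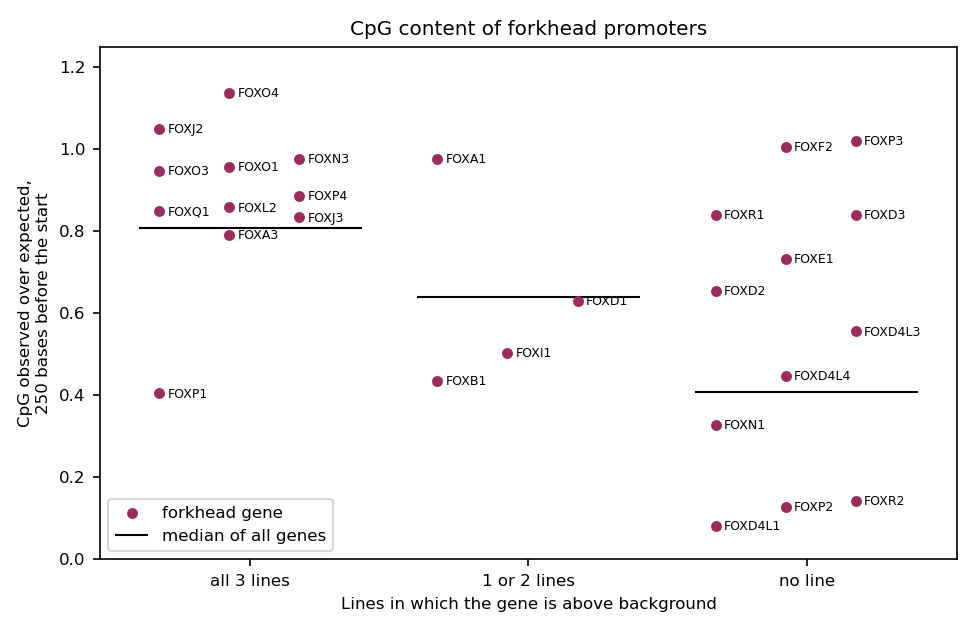
Ratio of observed to expected CpG in the 250 bases before the start (y axis) for 27 forkhead genes, grouped by the lines in which the gene was above background (x axis), with the median of all genes in each group as a line. Of the 11 genes above background in all lines FOXP1 alone, at 0.40, lies under 0.6, and the 12 genes above it in no line run from 0.08 to 1.02.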

How the data were processed

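Illumina whole-genome arrays (Cy3) measured total RNA of the 3 lines, per the labels' protocols. The authors deposited a linear intensity for each probe and array (47293 probes), with values below 0, as background subtraction leaves; software and any scaling were not given in the sources used here. The deposited medians over probes were 3.50, 3.50 and 4.40 units in H9, BG03 and ES01. Deposited bead files give 1 intensity per bead and served for bead error only.

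Of the probes, 18468 have 1 gene symbol in the platform annotation, 0 have several and 28825 are unnamed here; 18451 were matched to GRCh38.p14 by gene ID. All but 4 control probes were quantile-normalized (limma 3.58.1, R 4.3.3, data.table version 1.17.8). Background was set on 215 olfactory receptor probes per array. The probe with the highest mean stood for a gene, and values under background were set to that level before log2. Outlying beads (beyond 3 median absolute deviations within a type) were dropped, and bead error is the median over 251 bead types around a probe's rank.

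Lines have 1 array each and cannot be tested against each other, so genes are described by level, spread and 2-fold differences. The fold step was run on simulated data with strong changes in genes well above background. The normalization, dim genes, bead error and changes near 2-fold were not covered by it. Every member is named, with the first 4 measured genes of each partner list and any partner list gene 2-fold apart. LEFTY1, LEFTY2, GSC, ALB, PDX1 and SHH are named besides. The mesoderm, neuroectoderm and endoderm marker lists had 2 of 9, 3 of 8 and 6 of 7 genes above background in all lines. Of all named genes 59.8% were. Not all marker genes 2-fold apart are named. Members and lists were chosen with earlier results of these data known. Python 3.11.15, numpy 2.4.6, pandas 2.3.3 and matplotlib 3.10.9 were used. The alternatives varied scaling, background, probe rule, symbols, floor, filter, fold and the lines used.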

Additional observations from a re-analysis of the deposited data

How the results depend on the processing

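The count of forkhead genes above background in all lines was 15, and lay between 13 (99th percentile of the olfactory probes) and 16 (taste receptor, keratin-associated and defensin probes) over the alternatives, while the count in no line was 18 and lay between 16 and 21. The 99th percentile changed the number of lines for 6 genes (FOXA1, FOXB1, FOXD1, FOXI1, FOXJ1 and FOXP4), the second probe set for 4 (FOXB1, FOXF1, FOXI1 and FOXL1) and the mean of probes for FOXI1. Of the lists, the T cell count went from 1 to 0 with the 99th percentile. The FOXO list went from 20 to 16 there, the FOXH1 list from 12 to 11 and the FOXA list from 9 to 8. The other lists kept their counts.

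Counts of genes 2-fold apart were 0, 2 and 1 for H9 with BG03, H9 with ES01 and BG03 with ES01. At 1.5-fold they were 4, 5 and 4. The count for H9 with ES01 was 1, FOXD1, with same-median scaling, with the deposited values, at 3-fold and without replicate 2 (BG03). It was also 1, but FOXO4 in place of FOXD1, with a floor of 50 units and in genes that pass background on all arrays. In those same settings the count for BG03 with ES01 was 0. FOXD1 is not tested in genes that pass background on all arrays. With the floor of 50 units FOXD1 in ES01 was log2 0.75 above either line.

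Same-median scaling turned the median differences of ES01 to -0.090 against H9 (0.19 before) and -0.15 against BG03 (0.12 before), as it moved all genes. The deposited column medians it sets equal lie under background. Without replicate 1, 2 or 3 the counts in all lines were 15 to 16 and in no line 18 to 19; the median differences ran from 0.06 to 0.19 over the pairs left. The other alternatives stayed within 1.5 times for counts and within the spread between lines for medians. No paired analysis was possible because the lines form 1 group. The number of arrays, and signal near background, limit what could be told apart.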
